A study of Mus musculus with 12 samples.

Results

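Polyamine synthesis and antizyme genes were examined in B16F10 cells, a mouse melanoma line. The group was a list of 10 genes given by name, Odc1, Amd1, Srm, Sms, Oaz1, Oaz2, Azin1, Sat1, Smox and Paox. All 10 were found among the 55487 genes of each count table. Cells carried a lentiviral control hairpin (shCtr) or a single hairpin against Osgep (shOSGEP, hairpin #2), and no other allele or agent distinguished the groups. With 1 hairpin, effects of the hairpin and of Osgep loss cannot be told apart. The Osgep product is the enzyme of KEOPS, the complex that places N6-threonylcarbamoyladenosine (t6A) on tRNAs reading ANN codons. Ribosome-protected fragments (RPF, or footprints) and total RNA were sequenced with 3 replicates of each genotype, giving 12 libraries in 4 groups of 3. All cells of the RPF libraries received cycloheximide before lysis, and ribosomes were captured with a puromycin analogue. The study's methods describe independent transductions for its experiments, but the labels do not tie a replicate number to one, and the p-values measure only the spread between these samples. A member's message per cell and the number of cells contributing it cannot be told apart in such bulk libraries.

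Polyamines are small cations made from ornithine. Ornithine decarboxylase (Odc1) makes putrescine, S-adenosylmethionine decarboxylase (Amd1) makes the aminopropyl donor, and spermidine synthase (Srm) and spermine synthase (Sms) use that donor to build spermidine and spermine. Antizymes (Oaz1, Oaz2) bind ornithine decarboxylase and send it to the proteasome, while antizyme inhibitor (Azin1), a homologue without enzyme activity, binds the antizymes in its place. Spermidine/spermine acetyltransferase (Sat1), spermine oxidase (Smox) and N1-acetylpolyamine oxidase (Paox) run the pathway backwards. Much of the known control in this pathway is translational, through a +1 frameshift that polyamines promote in antizyme messages and through short upstream frames in Amd1, Odc1 and Azin1 messages.

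Known control elements of these messages are shown first. The following lines give the frameshift site of both antizyme messages in the plus-strand genome (GRCm38), Oaz1 at chr10:80828283-80828309 and Oaz2 at chr9:65686260-65686286, with the last sense codon and the stop codon of the first frame in capitals.
Oaz1: cggtggtgcTCCTGAtgtccctcaccc
Oaz2: ctgtggtgcTCCTGAtgcccctcaccc
In the annotated coding sequences the first frame held 68 codons in Oaz1 and 32 in Oaz2, and after 1 skipped base the second frame held 159 and 157 codons. A gene count adds footprints of both frames together, so the counts analysed here contain no measure of frameshifting. The upstream frame of Amd1, in the leader at chr10:40302155-40302175 on the minus strand, is given next with its start and stop codons in capitals.
Amd1 upstream frame: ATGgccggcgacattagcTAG
This frame is 6 codons long including the start. It was the only leader AUG of the annotated Amd1 transcript. Leaders of Odc1, Sat1, Azin1 and Sms held 2, 2, 3 and 4 AUGs, and those of Srm, Oaz1, Oaz2, Smox and Paox held 0. Thus 5 of 10 members had a leader AUG, against 51.28% of 18633 protein-coding genes, with 1 transcript taken for each gene. ANN codons made up 20.8% (Paox) to 30.5% (Amd1) of the coding codons of the members. The median over the same genes was 27.3%.

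Copies of these genes matter for how the footprints were counted. Processed copies hold the coding sequence without introns, and short footprints inside such a sequence match the parent and the copy alike. Of all 30-base windows in the coding sequence, 100% were also present in another annotated gene for Amd1 and Sms, 91.0% for Oaz1, 87.5% for Paox, 83.0% for Odc1, 63.6% for Oaz2, 35.4% for Sat1 and 18.1% for Srm. Azin1 and Smox shared 0 windows. The coding sequence of Amd2 (ENSMUSG00000063953, chromosome 10, 35708675 to 35711892, minus strand) matched that of Amd1 (ENSMUSG00000075232, chromosome 10, 40287458 to 40302186, minus strand) at 1001 of 1002 bases. The window around the single difference, in capitals, follows for Amd1 at chr10:40290157-40290216 and for Amd2 at chr10:35710735-35710794, both on the minus strand.
Amd1: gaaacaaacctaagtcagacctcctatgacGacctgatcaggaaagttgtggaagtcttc
Amd2: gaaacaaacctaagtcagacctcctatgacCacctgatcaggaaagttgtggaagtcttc
Spermine synthase has a pseudogene, Sms-ps (ENSMUSG00000081752, chromosome X, 62775585 to 62776685, minus strand), which matched the Sms coding sequence at 1098 of 1098 bases.

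Deposited counts on these copies differed sharply between the assays. Amd2 held 43 to 48 counts per shCtr total RNA library, beside 8353 to 9501 on Amd1, and its share of the counts of both genes was 0.420% to 0.622% over the 6 total RNA libraries. In RPF, however, Amd2 held more counts than Amd1 in every library. In shCtr RPF it had 562, 561 and 1851 counts in replicates 1, 2 and 3, against 192, 224 and 760 on Amd1. The Amd2 share was 74.5%, 71.5% and 70.9% in shCtr and 60.8%, 69.5% and 52.6% in shOSGEP, with 95% Wilson intervals from 68.2% to 77.5% in shCtr and from 50.0% to 71.7% in shOSGEP over the 3 libraries of each. The groups did not overlap, and the mean share was 11.3 percentage points lower in shOSGEP (two-sided exact permutation test, p = 0.1, the smallest that 3 against 3 allows). Sms-ps took 0.306% to 1.23% of the counts of Sms and Sms-ps in total RNA but 47.1% to 71.3% in RPF, with the highest share in shOSGEP replicate 1 (exact permutation p = 0.4 for the genotype difference). Oaz1-ps took at most 4.83% of the counts of Oaz1 and Oaz1-ps together in any library, and the copy of Paox, Gm19680, took 9.52% to 42.7% of the RPF counts on Paox and itself. The 20 genes that share windows with Odc1 held 0.933% to 6.75% of the RPF counts of Odc1 and these genes together. Whether the reads on copies came from the parent messages was not tested. Footprint values of Amd1, Sms and Paox are therefore uncertain, and they are given below with and without the counts of all genes that share their windows. The intervals cover counting error only.

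**Figure D1:**
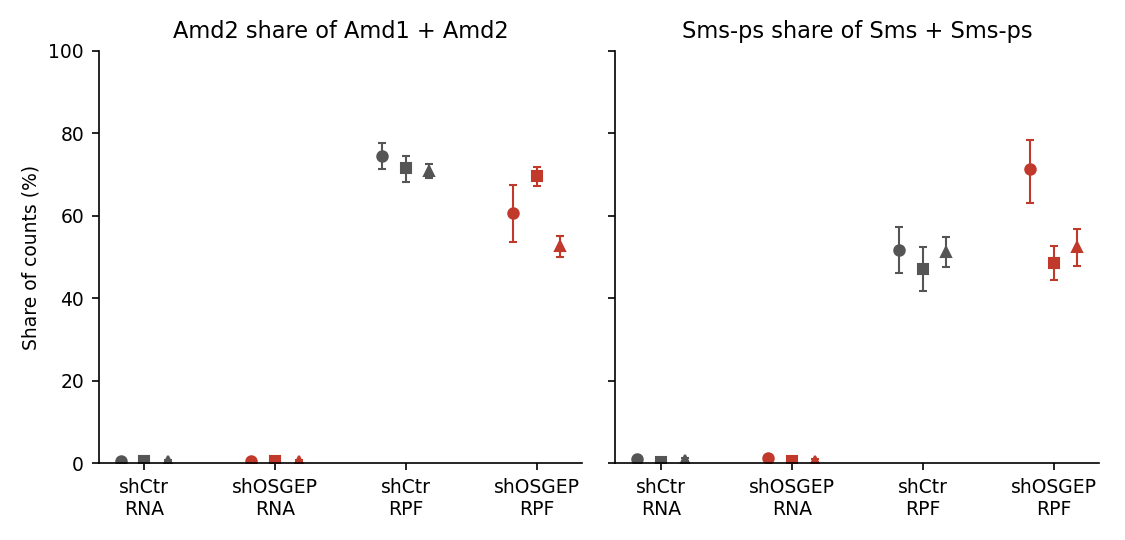
Share of counts assigned to the near-identical copy, Amd2 or Sms-ps, out of the counts of the copy and its parent in each library, in percent, with 95% Wilson intervals. Grey is shCtr and red shOSGEP, and circles, squares and triangles are replicates 1, 2 and 3. Both copies lie near 0 in total RNA and between 47.1% and 74.5% in RPF.

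The libraries and the knockdown were examined before the comparison. Total RNA libraries held 46.7 to 81.1 M counts (M, mega). RPF libraries held 12.9 to 40.3 M, of which 4.42 to 17.0 M fell on protein-coding genes, with the lowest number in shOSGEP replicate 1, where ribosomal RNA took 67.6%. The members had 533 to 28964 counts in a total RNA library and 36 to 7576 in an RPF library. Relative to the matching shCtr library, 4.25%, 44.0% and 44.4% of Osgep RNA was left in shOSGEP in replicates 1, 2 and 3, and 63.1%, 52.3% and 50.1% of its footprints. Replicate 1 thus kept the least Osgep RNA and the most Osgep footprints. The footprint shares rested on 59, 123 and 91 counts in shOSGEP and 137, 120 and 235 in shCtr. Osgep footprints of the groups overlapped, with 4.86 CPM in shOSGEP replicate 1 and 4.70 CPM in shCtr replicate 3. The melanocyte markers Pmel, Mlana, Tyr, Dct, Tyrp1, Sox10 and Mitf were all present, and their summed total RNA level was 9660 to 16829 CPM (counts scaled to M library counts) in shCtr, 2654 CPM in shOSGEP replicate 1, and 12784 and 11385 CPM in shOSGEP replicates 2 and 3. All 7 had a lower mean in shOSGEP. Markers of other cells (Ptprc, Pecam1, Krt14, Col1a1) summed to 0.720 to 1.24 CPM in shCtr and to 15.6, 0.775 and 2.84 CPM in shOSGEP, and Ptprc had 0 counts in every shCtr total RNA library. Col1a1 alone made up 15.3, 0.620 and 2.69 CPM of the shOSGEP sums. Ptprc, Pecam1 and Krt14 each stayed at or below 0.217 CPM in every total RNA library. The part of these differences in the results below was not tested. Fitted changes without shOSGEP replicate 1 are given beside the members it moved most.

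Footprints per RNA in shCtr cells served as the baseline. This value is the log2 of footprint CPM per kilobase of coding sequence over total RNA CPM per kilobase of exon, within one replicate, and the median of 10520 protein-coding genes was 0.17. Sat1 stood highest, at 1.45, 1.16 and 1.69 in replicates 1, 2 and 3 (1.44 ± 0.27, SD, n = 3), above 89.7% of genes. Messages of the proteins that control ornithine decarboxylase came next. Oaz1 reached 0.98 ± 0.25 (80.1st percentile), Oaz2 0.80 ± 0.47 (74.6th) and Azin1 0.73 ± 0.09 (72.4th, SD, n = 3 each). Odc1 itself lay near the median gene, at 0.27, -0.27 and 0.24 in the 3 replicates (0.08 ± 0.31, 46.1st percentile). Below it came Sms at -0.12 ± 0.11, Smox at -0.27 ± 0.50 and Paox at -0.54 ± 0.16. The lowest members were synthesis enzymes, Srm at -1.25, -1.54 and -1.51 (2.31st percentile) and Amd1 at -1.90, -1.84 and -1.72 (0.989th percentile). Neighbours in this order whose replicate ranges did not overlap were Sat1 over Oaz1, Azin1 over Odc1, Paox over Srm and Srm over Amd1. The lowest Sat1 replicate, at 1.163, lay just above the highest Oaz1 replicate, at 1.160. Oaz1, Oaz2 and Azin1 did not differ from their neighbours among themselves beyond their spread, nor did Odc1, Sms, Smox and Paox.

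The low position of Amd1 depended on where its footprints had been counted. With the counts of the 8 genes that share its windows added in both assays, Amd1 measured 0.07, -0.04 and 0.05 (0.03 ± 0.06, SD, n = 3), above 43.7% of genes, and was no longer the lowest member. Sms moved from -0.12 to 0.88 ± 0.10 (76.9th percentile) and Paox from -0.54 to 0.01 ± 0.35 (42.9th percentile). Srm, whose sharing genes held at most 0.380% of the RPF counts of Srm and those genes together, stayed at -1.43 ± 0.16, Odc1 moved to 0.16, and Oaz1, which moved most among Oaz1, Oaz2, Azin1, Sat1 and Smox, to 1.00. Lengths mattered as well, since the exon union of a gene can exceed any of its transcripts. With the lengths of the transcript with the longest coding sequence, Sat1 stood at the 64.7th percentile instead of the 89.7th and Oaz1 at the 59.7th instead of the 80.1st, while Azin1 stood at the 81.7th and Oaz2 at the 82.5th. The ranges of Sat1 (-0.44 to 0.09) and Oaz1 (-0.56 to -0.09) overlapped with these lengths. They also overlapped with copies added, at 1.16 to 1.69 for Sat1 and 0.69 to 1.22 for Oaz1.

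**Figure D2:**
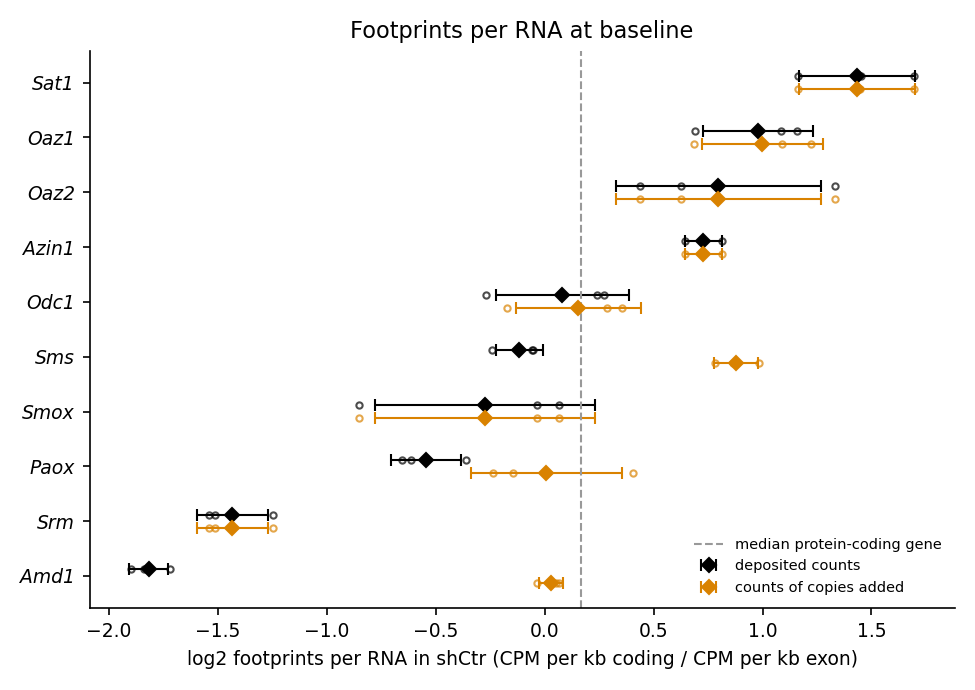
Log2 footprints per RNA of each member in shCtr cells, as footprint CPM per kilobase of coding sequence over total RNA CPM per kilobase of exon. Diamonds and bars are mean and SD of 3 replicates, open circles the replicates, black the deposited counts and orange the counts with those of copies added, and the dashed line is the median gene at 0.17. Amd1, Sms and Paox shift to the right when copies are added, and Srm stays at -1.43.

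Per length, the most abundant member messages in shCtr total RNA were Odc1 and Oaz1, at 92.7 ± 25.6 and 86.4 ± 8.62 CPM per kilobase of exon (SD, n = 3 each), above 96.1% and 95.8% of the genes. Srm followed at 58.1 and Amd1 at 46.1 CPM per kilobase. Oaz2, Azin1 and Sat1 lay between 15.6 and 18.6 CPM per kilobase, Sms and Smox at 8.43 and 6.10, and Paox was lowest at 2.30 ± 0.37. In footprints per kilobase of coding sequence Oaz1 was highest, at 171 ± 22.8, and Odc1 next, at 96.1 ± 9.94. The 3 Oaz1 replicates lay above all Odc1 replicates on this footprint scale, whereas their RNA ranges overlapped with exon-union lengths. Those lengths were 3405 bases for Odc1 and 2558 for Oaz1, against 2208 and 1044 in the transcript with the longest coding sequence. Dividing by the latter raises Oaz1 RNA more than Odc1 RNA, so the RNA overlap holds for exon unions only.

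The effect of Osgep depletion on these genes was then asked of total RNA, footprints and translational efficiency, the ratio of footprints to RNA. No member passed the test in any of them. Of 10 members tested in each comparison, 0 had an edgeR adjusted p under 0.05, as did 0% of the 14516 genes tested in total RNA, of the 13529 in RPF and of the 12560 for translational efficiency. At an unadjusted p under 0.05 the count was also 0 of 10 in each, against 1.78%, 1.03% and 0.135% of all genes. DESeq2 called 0 members as well, and 8, 1 and 0 genes in all. The knocked-down gene itself was missed by edgeR. Osgep had a fitted change of -1.65 for RNA (SE 0.77) and -0.84 for footprints (SE 0.39). Its adjusted p-values from that test were 0.975 and 0.9998. A count of 0 members therefore cannot be read as absence of change, since the same test missed a known knockdown. In total RNA 8 members had a fitted change below 0 and 2 above, with a median of -0.25 (all genes 0.02, log2 scale). In RPF 9 were below and 1 above, with a median of -0.21 (all genes 0.05). For translational efficiency 5 were below and 5 above, and the median was -0.03 (all genes 0.00).

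Replicate 1 gave the largest share of the downward shift. The median over members of the log2 difference between libraries of the same number in total RNA was -0.52, -0.16 and -0.14 for pairs 1, 2 and 3. The RPF values were -0.72, -0.08 and -0.24. The fitted median was -0.09 for total RNA and -0.12 for RPF once shOSGEP replicate 1 was left out. Other libraries moved it too, to -0.42 in total RNA without shOSGEP replicate 2, and in RPF to -0.34 without shOSGEP replicate 3 and -0.13 without shCtr replicate 3.

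Synthesis enzymes came first in the pathway and showed wide spread. Odc1 measured 239, 410.5 and 298 CPM in shCtr total RNA and 189, 374 and 354 CPM in shOSGEP. Its footprints were at 124, 146 and 151 CPM in shCtr and 78.8, 155 and 125 CPM in shOSGEP. Replicate 1 was lowest in both genotypes and assays, and the groups overlapped. The fitted change of Odc1 was -0.05 for RNA (SE 0.31), -0.23 for footprints (SE 0.33) and -0.19 for translational efficiency (SE 0.45). With shOSGEP replicate 1 left out, the Odc1 change was 0.20 for RNA and -0.014 for footprints. Amd1 RNA was at 142, 171 and 177 CPM in shCtr and 64.0, 168 and 165 CPM in shOSGEP, so that only shOSGEP replicate 1 lay outside the control range. Amd1 footprints were at 10.8, 13.6 and 15.2 CPM in shCtr and 6.02, 14.9 and 17.2 CPM in shOSGEP. Their ratio to RNA was higher in shOSGEP in 3 of 3 pairs and its groups did not overlap. The fitted change in translational efficiency was 0.26 (SE 0.56, edgeR adjusted p 0.999993). That direction turned once copies were added, to -0.19 (SE 0.57), and the RPF change went from -0.05 (SE 0.41) to -0.50 (SE 0.42). On the deposited counts the Amd1 change with shOSGEP replicate 1 left out was 0.019 for RNA and 0.27 for footprints.

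Both aminopropyl transferases were lower on average without passing the test. Srm RNA measured 82.2, 117 and 79.5 CPM in shCtr and 56.2, 101 and 84.9 CPM in shOSGEP, with the groups overlapping. Its footprints were at 19.6, 22.8 and 15.8 CPM in shCtr and 16.2, 21.5 and 13.6 CPM in shOSGEP, lower in 3 of 3 pairs. The fitted Srm change was -0.20 for RNA (SE 0.26), -0.18 for footprints (SE 0.28) and 0.02 for translational efficiency (SE 0.38). With shOSGEP replicate 1 left out, these Srm values were -0.0092, -0.16 and -0.15. Sms RNA was at 47.1, 58.7 and 46.3 CPM in shCtr and 24.9, 51.9 and 45.3 CPM in shOSGEP. Sms footprints were at 8.27, 10.3 and 7.16 CPM and at 3.05, 8.90 and 5.90 CPM, where the lowest value rested on 37 counts. The fitted RPF change of Sms was -0.52 (SE 0.42) on the deposited counts, -0.22 without shOSGEP replicate 1 and -0.34 with copies added. The Sms change in RNA without that library was -0.069. Its translational efficiency changed by -0.20 (SE 0.50), lower in 3 of 3 pairs on the deposited counts but not with copies added.

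None of the antizyme genes or the antizyme inhibitor passed the test. Oaz1, the main antizyme, measured 224, 241 and 197 CPM in shCtr total RNA and 159, 211 and 167 CPM in shOSGEP. Its footprints were at 137, 107 and 115 CPM in shCtr and 79.7, 101 and 95.5 CPM in shOSGEP. All 3 shOSGEP footprint values lay below all 3 shCtr values, and both assays were lower in 3 of 3 pairs. The fitted change was -0.30 for RNA (SE 0.16), -0.38 for footprints (SE 0.27) and -0.08 for their ratio (SE 0.27). Leaving out shOSGEP replicate 1 gave Oaz1 changes of -0.24 for RNA and -0.30 for footprints. Oaz2 RNA was at 68.1, 46.1 and 53.0 CPM in shCtr and 95.3, 44.4 and 47.2 CPM in shOSGEP, a higher value in pair 1 and lower values in the other pairs. The fitted Oaz2 change in RNA was 0.16 (SE 0.33), and -0.29 without shOSGEP replicate 1. Oaz2 footprints were at 21.9, 16.9 and 31.7 CPM in shCtr and 22.2, 14.8 and 24.7 CPM in shOSGEP, with wide overlap. Its translational efficiency was lower in 3 of 3 pairs, with a fitted change of -0.36 (SE 0.50) that was 0.03 without shOSGEP replicate 1. Azin1, the decoy of antizyme, measured 92.6, 95.4 and 127 CPM in shCtr total RNA and 144, 102 and 132 CPM in shOSGEP. It was the only member with higher RNA in 3 of 3 pairs (0.63, 0.10 and 0.06, log2). Azin1 footprints were at 35.4, 34.3 and 43.0 CPM in shCtr and 46.5, 32.2 and 32.5 CPM in shOSGEP, with the groups overlapping. Log2 footprints per Azin1 RNA were below the control range in every shOSGEP replicate, at 0.58, 0.54 and 0.18 against 0.82, 0.73 and 0.64 in shCtr. The fitted change of -0.29 (SE 0.32, edgeR adjusted p 0.999993) did not pass the test. The Azin1 change with shOSGEP replicate 1 left out was 0.15 for RNA and -0.23 for footprints. Azin1 shares no windows with other genes.

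Acetylation and oxidation genes held the members with non-overlapping RNA. Sat1 RNA was at 44.3, 44.3 and 41.2 CPM in shCtr and 17.6, 38.7 and 35.1 CPM in shOSGEP. Smox RNA was at 24.7, 23.1 and 23.5 CPM in shCtr and 12.8, 20.1 and 19.6 CPM in shOSGEP. Every shOSGEP value of both genes lay below every shCtr value. The fitted changes were -0.51 for Sat1 (SE 0.29) and -0.44 for Smox (SE 0.21), and edgeR gave both an adjusted p of 0.975. Without shOSGEP replicate 1 they came to -0.24 (SE 0.12) and -0.27 (SE 0.13). Sat1 footprints were at 23.8, 19.5 and 26.2 CPM in shCtr and 7.83, 18.4 and 25.9 CPM in shOSGEP, so pairs 2 and 3 differed by -0.08 and -0.02 only and pair 1 by -1.59. The Sat1 footprint change without shOSGEP replicate 1 was -0.079. Smox footprints, at 11.2, 5.93 and 11.4 CPM and at 5.36, 7.67 and 11.1 CPM, overlapped, and their fitted change without that library was -0.033. Paox was the least abundant member, with RNA of 11.1, 9.60 and 13.2 CPM in shCtr and 11.5, 9.76 and 11.3 CPM in shOSGEP. It was the member with a positive RPF change, 0.32 (SE 0.37), and its footprints were higher in 3 of 3 pairs, at 3.09, 2.18 and 3.08 CPM in shCtr and 3.87, 2.66 and 3.93 CPM in shOSGEP. With the counts of its copy added the RPF change was 0.18 (SE 0.40). On the deposited counts the Paox change in translational efficiency was 0.37 (SE 0.37), higher in 3 of 3 pairs. With its copy added, mean log2 footprints per Paox RNA were 0.01 in shCtr and 0.17 in shOSGEP. The translational efficiency changes of Sat1 and Smox were 0.10 (SE 0.54) and 0.21 (SE 0.45).

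Counts of members whose groups did not overlap were read against all genes. In total RNA 2 of 10 were lower (Sat1, Smox) and 0 higher, where 3.09% of genes were lower and 4% higher. In RPF 1 was lower (Oaz1) and 0 higher, where 2.64% and 2.43% were. For translational efficiency 1 was lower (Azin1) and 1 higher (Amd1), where 2.31% and 2.03% were. By pairs, 5 members were lower and 1 higher in 3 of 3 pairs in total RNA (16.2% and 17.7% of genes), 4 and 1 in RPF (15.2% and 15.6%), and 3 and 2 for translational efficiency (11.2% and 11.6%). With the counts of copies added, the Amd1 groups overlapped for translational efficiency, so that 0 members were higher. By pairs, 2 members were then lower (Oaz2, Azin1) and 1 higher (Paox), and the counts in total RNA and in RPF stayed as given. The counts of the members are small, and no test was made of them.

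**Figure D3:**
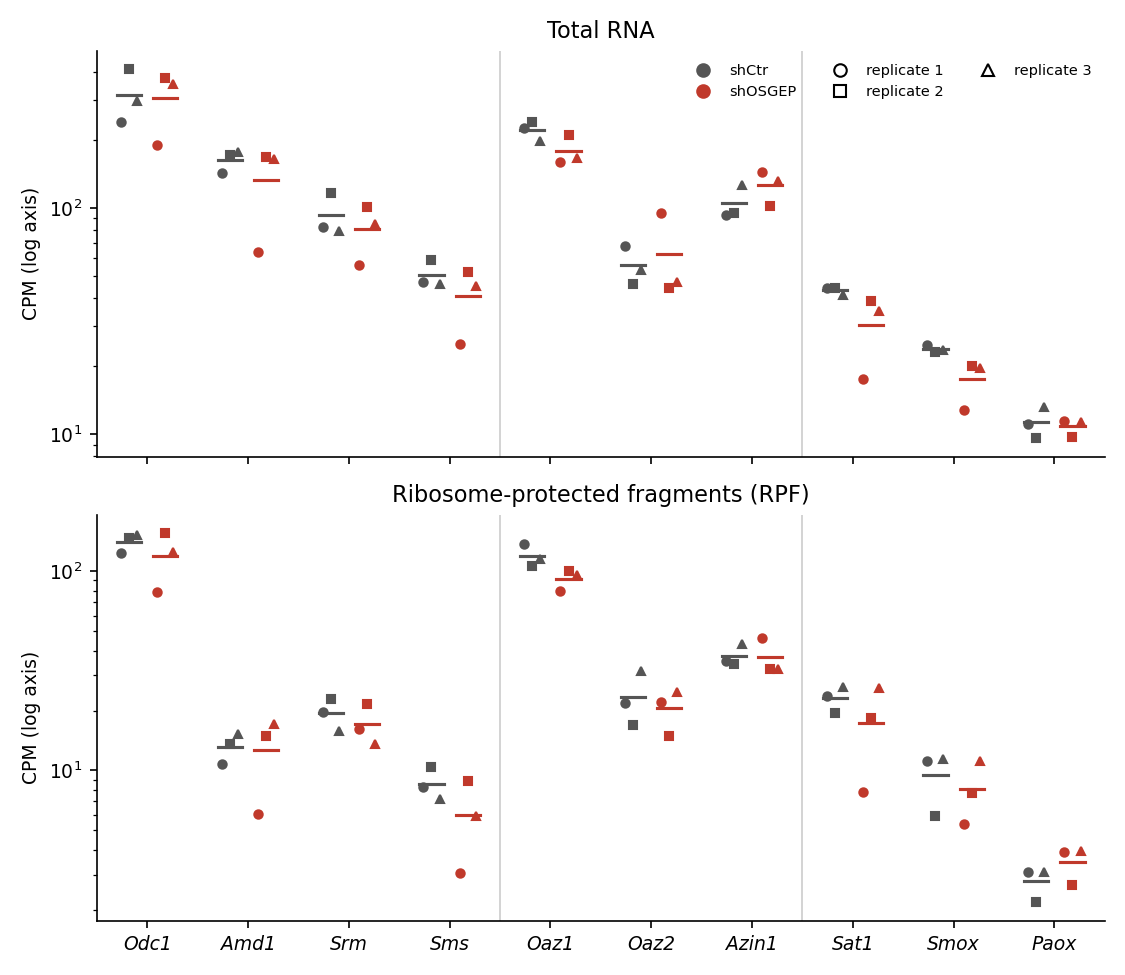
CPM of each member in the 6 total RNA libraries and the 6 RPF libraries, on log axes. Grey is shCtr and red shOSGEP, bars are group means of 3 replicates, and circles, squares and triangles are replicates 1, 2 and 3. The shOSGEP replicate 1 library lies lowest for most synthesis and catabolic genes and highest for Azin1 and Oaz2 in total RNA.

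**Figure D4:**
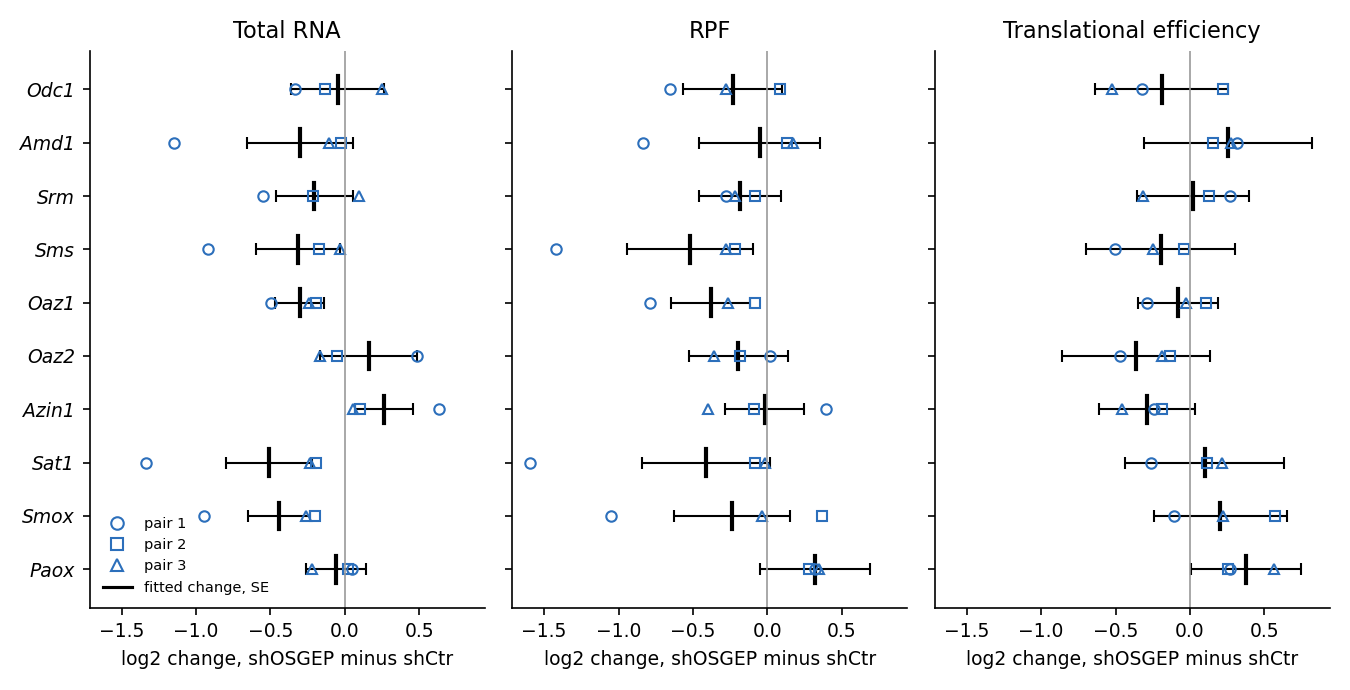
Log2 change from shCtr to shOSGEP of each member in total RNA, RPF and translational efficiency. Black bars are the edgeR fitted change with its SE, and blue symbols are the differences between libraries of replicate pairs 1, 2 and 3. In total RNA pair 1 reaches -1.33 for Sat1, -1.15 for Amd1 and 0.63 for Azin1, while pairs 2 and 3 lie closer to 0.

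The balance of enzyme, inhibitor and decoy was compared within each library, where no scaling between libraries is needed. The log2 ratio of Azin1 to Oaz1 counts in total RNA was -1.08 ± 0.39 in shCtr and -0.51 ± 0.47 in shOSGEP (SD, n = 3 each). It was higher in shOSGEP by 1.13, 0.29 and 0.30 in pairs 1, 2 and 3, a mean of 0.57 (two-sided exact permutation test, p = 0.2, adjusted p = 0.84 over 6 ratios). In RPF the same ratio went from -1.67 ± 0.27 to -1.33 ± 0.48, but only pair 1 was higher (exact permutation p = 0.5). The mean difference without shOSGEP replicate 1 was 0.39 for RNA and 0.073 for footprints. Odc1 to Oaz1 was at 0.48 ± 0.35 in shCtr total RNA and 0.72 ± 0.43 in shOSGEP (exact permutation p = 0.5) and was higher in 3 of 3 pairs. On footprints it was at 0.24 ± 0.33 and 0.33 ± 0.33 (exact permutation p = 0.7). Odc1 to Azin1 changed by -0.34 in total RNA and -0.25 in RPF (exact permutation p = 0.6 and 0.9), with pair 1 at -0.97 and -1.05 and pair 3 at 0.19 and 0.13. None of the 6 differences passed its test, and the smallest p these tests can give is 0.1 unpaired and 0.25 within pairs.

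**Figure D5:**
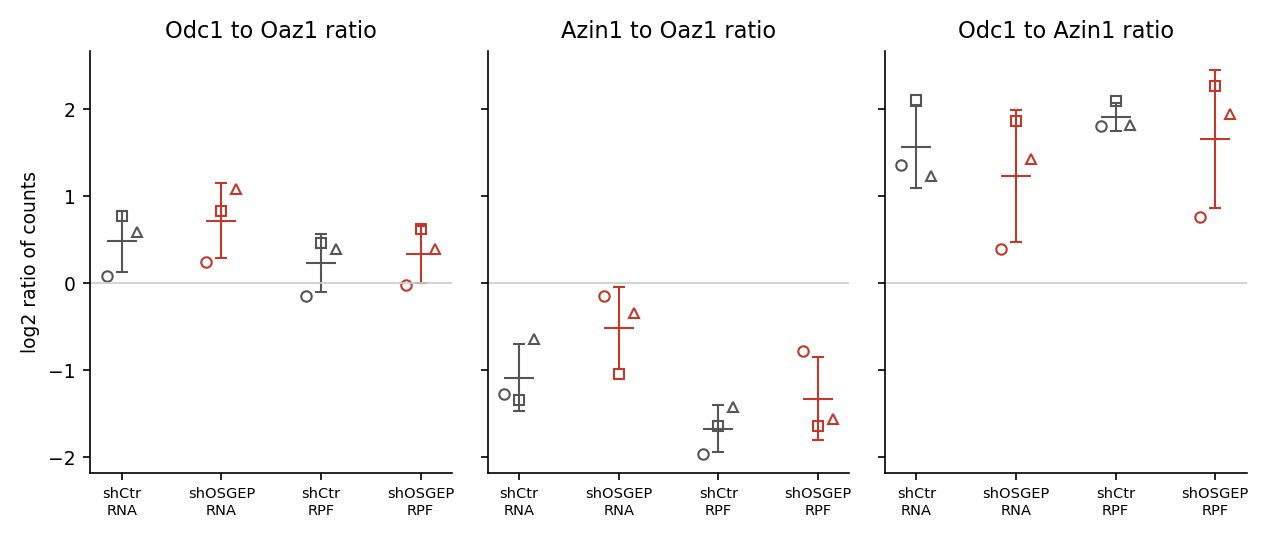
Log2 ratio of counts within a library for Odc1 to Oaz1, Azin1 to Oaz1 and Odc1 to Azin1. Horizontal marks and bars are mean and SD of 3 replicates, and circles, squares and triangles are replicates 1, 2 and 3. The mean Azin1 to Oaz1 ratio in total RNA is -1.08 in shCtr and -0.51 in shOSGEP, with overlapping replicates.

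Other genes of polyamine metabolism were described from a list of 23, of which 19 were tested. In total RNA 6 were above 0 and 13 below, in RPF 8 and 11, and for translational efficiency 8 and 11. Of these, 0 passed the adjusted threshold, and 1 had an unadjusted p under 0.05, in RPF, where 1.03% of all genes did. This was Atp13a2, a lysosomal exporter of polyamines. Its footprints were at 154, 99.0 and 82.5 CPM in shCtr and 32.4, 78.2 and 49.7 CPM in shOSGEP, all lower than in shCtr, with a fitted change of -1.07 (SE 0.42, edgeR adjusted p 0.9998). Its RNA, at 352, 253 and 170 CPM and at 133, 196 and 163 CPM, gave -0.66 (SE 0.29), and its translational efficiency -0.41 (SE 0.52). Sat2, a homologue of Sat1, had the largest positive values, 0.80 for RNA (SE 0.54) and 1.11 for footprints (SE 0.75), with 1.96 in RPF pair 1 and -0.28 and 0.18 in the other pairs. The largest value for translational efficiency was that of Amd2, -0.46 (SE 0.61). Within the coding sequence, its footprints can be told from those of Amd1 only over the single differing base. Amd2 RNA rested on 24 to 61 counts per library. Genes of hypusine formation, which uses spermidine to modify Eif5a, lay between -0.19 (Dohh) and 0.05 (Eif5a2) in total RNA and between -0.33 (Dohh) and 0.01 (Dhps) in RPF.

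The total RNA pattern of Odc1 over the 6 libraries was most like those of Pigw (Pearson r = 0.999), Dctd (r = 0.991) and Lbr (r = 0.991) among 8955 protein-coding genes. That of Oaz1 was most like those of Abhd8 (r = 0.999), Dctn6 (r = 0.996) and Xpnpep1 (r = 0.995). With so few libraries and so many genes, and with shOSGEP replicate 1 set apart, these are descriptions only.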

How the data were processed

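Both deposited tables held read counts per Ensembl gene, whole numbers without normalisation, made by the authors from RPF and total RNA reads. The submitters' processing notes name FastQC 0.11.9, Trim Galore 0.6.6, cutadapt and STAR, and both GRCm38 and GRCm39. The study's methods name Salmon for RNA sequencing, which they list as a separate series, and keep perfect matches to coding transcripts for the codon analysis, whereas the deposited tables also list ribosomal and other noncoding RNA. The counting step behind them, its strand setting and its handling of reads with several matches are not given in the sources used here. Symbols, lengths and coordinates came from GENCODE M21 (GRCm38), in which 55141 of the gene IDs were found and 346 were not. Sequences were read from that annotation and the GRCm38 genome, and no protein sequence was used.

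The quasi-likelihood test in edgeR 4.0.16 (R 4.3.3, filterByExpr, TMM) was applied to the counts, in total RNA and RPF separately, and as the interaction of assay and genotype over 12 libraries for translational efficiency, with Benjamini-Hochberg adjustment over all genes and a threshold of 0.05. DESeq2 1.42.0 was an alternative. CPM used TMM library sizes, and log2 CPM a prior count of 2. In baseline percentiles, genes had at least 10 counts in every shCtr library. Depth was 12.9 to 40.3 M (mega) counts in RPF and 46.7 to 81.1 M in total RNA. The scripts were tested on simulated counts with a single dispersion for all genes and no replicate effect. That checks the code and does not measure power in these data.

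Groups and replicate numbers came from the labels. After subtraction of group means, libraries with equal numbers correlated across genes by 0.29 to 0.54 (total RNA) and 0.51 to 0.66 (RPF). The numbers were therefore taken to pair the samples in differences by pair and in the replicate block. The main fits held no replicate term, so their SEs and p-values treat the groups as unpaired. For translational efficiency they also treat RPF and total RNA libraries of the same genotype and number as independent. With the block, the SE in total RNA went from 0.31 to 0.16 for Odc1 and from 0.29 to 0.27 for Sat1. No library repeated another (chi-square per degree of freedom at least 88.9). All 10 members were named. Genes of the wider list were named where the unadjusted p was under 0.05 or, per comparison, for the 2 largest absolute changes, and the hypusine genes by their range. The 3 genes most like Odc1 and the 3 most like Oaz1 were searched among genes with a mean of at least 10 CPM. The members and lists were chosen with earlier results of these data known.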

Additional observations from a re-analysis of the deposited data

How the results depend on the processing

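No member reached an adjusted p of 0.05 under any of 400 refits of single members, and the smallest was 0.701. The replicate block, RLE size factors, both other filters, DESeq2, protein-coding genes only and, for translational efficiency, TMM over all 12 libraries left the number of members called at 0 in each comparison, as did the thresholds of the study (unadjusted p under 0.05 and a log2 change over 0.5). The block changed no call of a member, and over all genes it called 1 in total RNA, against 0 in the main fit. Within pairs the exact permutation p was 0.25 for Odc1 to Oaz1 and for Azin1 to Oaz1 in total RNA, and 0.5 or 1.0 for the other ratios. Adding the counts of copies was chosen after seeing the data. It turned the Amd1 change in translational efficiency to -0.19. The absence of a filter turned that of Srm to -0.016.

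Baseline values relative to the median gene moved by more than the replicate SD in these settings. With the lengths of the longest coding transcript, Amd1 came to -1.49, Srm to -1.22, Oaz1 to 0.20, Azin1 to 0.85, Sat1 to 0.30 and Paox to 0.062. Without length scaling, Odc1 came to 0.27, Amd1 to -2.24, Srm to -0.85, Sms to -1.17, Oaz1 to 0.51, Oaz2 to 0.13, Azin1 to -0.073 and Sat1 to 0.49. With copies added, Amd1 came to -0.14, Sms to 0.71 and Paox to -0.16. The settings differ in their lengths or counts by construction.

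Leaving out 1 library (for translational efficiency, 1 cell sample) in turn gave the following lowest and highest changes for results that turned. In total RNA these were -0.22 and 0.20 for Odc1, -0.52 and 0.019 for Amd1, -0.29 and 0.35 for Oaz2, and -0.16 and 0.051 for Paox. In RPF they were -0.33 and 0.27 for Amd1, -0.40 and 0.084 for Oaz2, and -0.23 and 0.089 for Azin1. For translational efficiency they were -0.15 and 0.21 for Srm, -0.22 and 0.0059 for Oaz1, -0.68 and 0.031 for Oaz2, -0.18 and 0.25 for Sat1, and -0.025 and 0.37 for Smox. The Odc1 to Azin1 ratio ranged from -0.66 to 0.080 (total RNA) or -0.55 to 0.20 (RPF), and Odc1 to Oaz1 from -0.095 to 0.27 (RPF). The median change of the members in translational efficiency ranged from -0.11 to 0.043. The Odc1 baseline relative to the median gene ranged from -0.18 to 0.084. The cause was not tested. RPF counts were as low as 36 for Paox and 37 for Sms.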
